A study of Mus musculus with 13 samples.

Results

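The genes described here are 10 grouped under VEGF and angiopoietin signalling, *Vegfa*, *Vegfc*, *Kdr*, *Flt1*, *Nrp1*, *Angpt1*, *Angpt2*, *Tek*, *Tie1* and the angiopoietin-like gene *Angptl2*. They were chosen by symbol and make up 10 of the 35967 gene symbols listed for isolated mouse glomeruli. All 10 passed the filter on low values and were among the 14322 genes tested. At day 5 after injection of anti-THSD7A IgG, 1 of them, *Angptl2*, was lower than in control mice past the thresholds used, by 33.2%. At day 1, 0 of the 10 were called. Over all tested genes, 3.21% were called at day 5 and 0.0908% at day 1. The 9 members other than *Angptl2* were not called in any of the 3 comparisons.

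VEGF-A is secreted by podocytes, the epithelial cells on the outer face of the glomerular filter, and reaches the fenestrated endothelium across the basement membrane, where it binds VEGFR2 (encoded by *Kdr*), the main signalling receptor, and VEGFR1 (*Flt1*), which also exists as a soluble decoy. Angiopoietin 1 activates the endothelial receptor TIE2 (*Tek*) and keeps vessels quiescent, whereas angiopoietin 2 opposes it in many settings. TIE1 forms complexes with TIE2, and both the loss and the excess of podocyte VEGF-A are known to injure glomeruli.

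The study induced membranous nephropathy (MN), a disease in which antibodies deposit at podocytes, in male wildtype Balb/c mice by intraperitoneal injection. The control group (n = 5) received 2.0 mg of rabbit preimmune IgG, and the MN groups received 2.0 mg of rabbit IgG against THSD7A, a podocyte membrane protein, and were killed at day 1 (n = 4) or day 5 (n = 4). Control mice of both days were combined, and the day of each was not given in the sources used here. An age is stated for the littermate mice of the knockout experiments with this model, and whether it holds for the sequenced mice was not stated. All groups thus carried foreign rabbit IgG, and no uninjected mice were included. The model is one of passive antibody transfer. Bulk RNA was sequenced with 1 library per sample.

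Values are TPM, the share of a library's transcripts taken by a gene after correction for transcript length, which allows levels to be compared between genes. Read depth was unknown, so the counting error of each value could not be given. Fold changes are given on the log2(scaled TPM + 0.5) scale, which understates changes of low genes such as *Angpt1* and *Vegfc*. A gene was called when its limma fold change exceeded 0.5 in absolute log2 units with a Benjamini-Hochberg adjusted p under 0.05. In bulk RNA, fewer cells of a type and less RNA per cell cannot be told apart.

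The label of the tissue was checked with marker genes. Summed TPM of 10 podocyte markers lay between 7881 and 10658 over the 13 libraries, and that of 12 endothelial markers lay between 9493 and 14202. Summed TPM of 9 tubular markers ranged from 402 to 1021 in control, from 783 to 1364 in day 1 MN and from 570 to 728 in day 5 MN libraries. All 9 tubular markers had higher values at day 1 than in control (median log2 fold change 0.72), and 0 were called by limma. Leukocyte markers summed to 25.5 to 52.5 TPM. Among lymphatic endothelial markers, *Prox1* stayed under 1 TPM (0.254 to 0.808), and *Ccl21a* was listed at 0 in all control and day 5 MN libraries.

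On the GRCm39 assembly, with GENCODE genes, *Vegfa* lies at chr17:46327919-46343309 (minus strand), *Vegfc* at chr8:54530257-54640131 (plus) and *Angptl2* at chr2:33105946-33138252 (plus). *Kdr* lies at chr5:76093487-76139884, *Flt1* at chr5:147498414-147662826 (both minus) and *Nrp1* at chr8:129085085-129231082 (plus). *Tek* lies at chr4:94627291-94763224 (plus) and *Tie1* at chr4:118328385-118347261 (minus). *Angpt1* lies at chr15:42288058-42540417 and *Angpt2* at chr8:18739202-18791603, both on the minus strand. *Angpt2* sits inside *Mcph1*, a DNA damage and centrosome gene on the opposite strand, and 70.7% of its exonic bases (3387 of 4792) are also exonic there. Whether the quantification used strand was not stated, so reads of that stretch could come from either gene. *Mcph1* was listed at 4.44 ± 0.556 TPM (SD, n = 5) in control mice, against 42.9 ± 5.08 for *Angpt2*. *Angptl2* lies inside *Ralgps1*, on the opposite strand, with 0 shared exonic bases.

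Upstream sequence is shown for the members whose day 5 values had an unadjusted p under 0.05 against control, *Angptl2*, *Vegfa*, *Vegfc* and *Tie1*. Each is the 250 bases before a RefSeq gene start on GRCm38.p6, an older assembly than that of the TPM, read 5′ to 3′ on the strand of the gene. The windows are chr2:33215711-33215960 (plus strand) for *Angptl2*, chr17:46032378-46032627 (minus) for the outer and chr17:46025164-46025413 (minus) for the inner start of *Vegfa*, chr8:54077282-54077531 (plus) for *Vegfc* and chr4:118489850-118490099 (minus) for *Tie1*. The inner *Vegfa* window lies downstream of the outer start, inside the gene. Capitals mark matches, on either strand, to ACGTG (core of a hypoxia response element), GGGCGG (GC box), GGAAG (core of an ETS site) or GTAAACA (FOXO site), and no matches overlapped in these windows.
Angptl2: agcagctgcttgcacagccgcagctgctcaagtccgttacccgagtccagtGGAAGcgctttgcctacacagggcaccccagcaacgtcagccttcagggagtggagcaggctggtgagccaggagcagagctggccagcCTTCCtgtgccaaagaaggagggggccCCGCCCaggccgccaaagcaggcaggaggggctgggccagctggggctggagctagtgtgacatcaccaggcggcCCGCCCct
Vegfa, outer start: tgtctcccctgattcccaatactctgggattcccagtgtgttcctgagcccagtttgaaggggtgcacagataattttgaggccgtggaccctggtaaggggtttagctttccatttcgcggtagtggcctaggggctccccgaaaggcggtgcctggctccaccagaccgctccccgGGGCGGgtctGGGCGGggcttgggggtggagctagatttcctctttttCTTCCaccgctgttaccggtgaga
Vegfa, inner start: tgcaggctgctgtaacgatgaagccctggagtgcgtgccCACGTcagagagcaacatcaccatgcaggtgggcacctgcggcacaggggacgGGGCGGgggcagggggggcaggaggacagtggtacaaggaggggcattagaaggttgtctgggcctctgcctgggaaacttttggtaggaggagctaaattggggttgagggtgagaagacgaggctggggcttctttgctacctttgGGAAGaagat
Vegfc: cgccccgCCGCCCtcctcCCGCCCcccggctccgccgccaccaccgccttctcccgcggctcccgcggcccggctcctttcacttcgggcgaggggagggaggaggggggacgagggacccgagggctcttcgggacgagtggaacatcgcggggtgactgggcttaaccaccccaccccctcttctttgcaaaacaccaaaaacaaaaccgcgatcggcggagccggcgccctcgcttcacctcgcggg
Tie1: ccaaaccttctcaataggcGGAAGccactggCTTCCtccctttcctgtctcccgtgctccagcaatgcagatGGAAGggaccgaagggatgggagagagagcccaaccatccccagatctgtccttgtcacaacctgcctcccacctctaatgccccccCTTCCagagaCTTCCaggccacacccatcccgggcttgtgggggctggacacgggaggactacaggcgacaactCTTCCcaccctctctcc

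Upstream windows were found for 8 of the 10 members. The GC box was present in 6 of the 8, against 32.7% of all 32851 windows of this length in the table. The ETS core was also present in 6 of the 8, against 64.1% of all windows, and the *Tie1* window alone held 6 matches. The hypoxia response element core was found for 1 member, *Vegfa*, against 16.6% of all windows. That match was in the window of the inner start, which lies inside the gene and not upstream of it. The window of the outer start held 0 matches to this core. The background shares are per window, and *Vegfa* had more than 1 window. The FOXO letters were found for 0 of the 8, against 3.17% of all windows. The *Tek* window held none of the 4 motifs.

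In control glomeruli the members spanned a wide range of levels. *Vegfa* had the highest mean at 1261 ± 175 TPM (SD, n = 5), rank 80 of the 14322 tested genes. Its lowest control library stood above the highest of *Kdr* but not of *Nrp1*. In control replicate 2, *Vegfa* was 999 TPM and *Nrp1* 1000.2 TPM. *Kdr* (831 ± 103 TPM) and *Nrp1* (829.6 ± 122 TPM) did not differ beyond their spread. *Angptl2* followed at 404 ± 21.3 TPM, with no overlap with its neighbours in this order. *Tek* (306 ± 26.6 TPM), *Flt1* (254 ± 22.4 TPM) and *Tie1* (206 ± 26.2 TPM) overlapped each with the next. *Angpt2* stood at 42.9 ± 5.08 TPM and *Vegfc* at 10.7 ± 2.51 TPM. *Angpt1* was the lowest at 2.56 ± 0.307 TPM, with 14.0% of the tested genes below it. The TIE2 receptor transcript thus stood among the abundant genes and that of its activating ligand near the lower end of the genes tested.

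**Figure D1:**
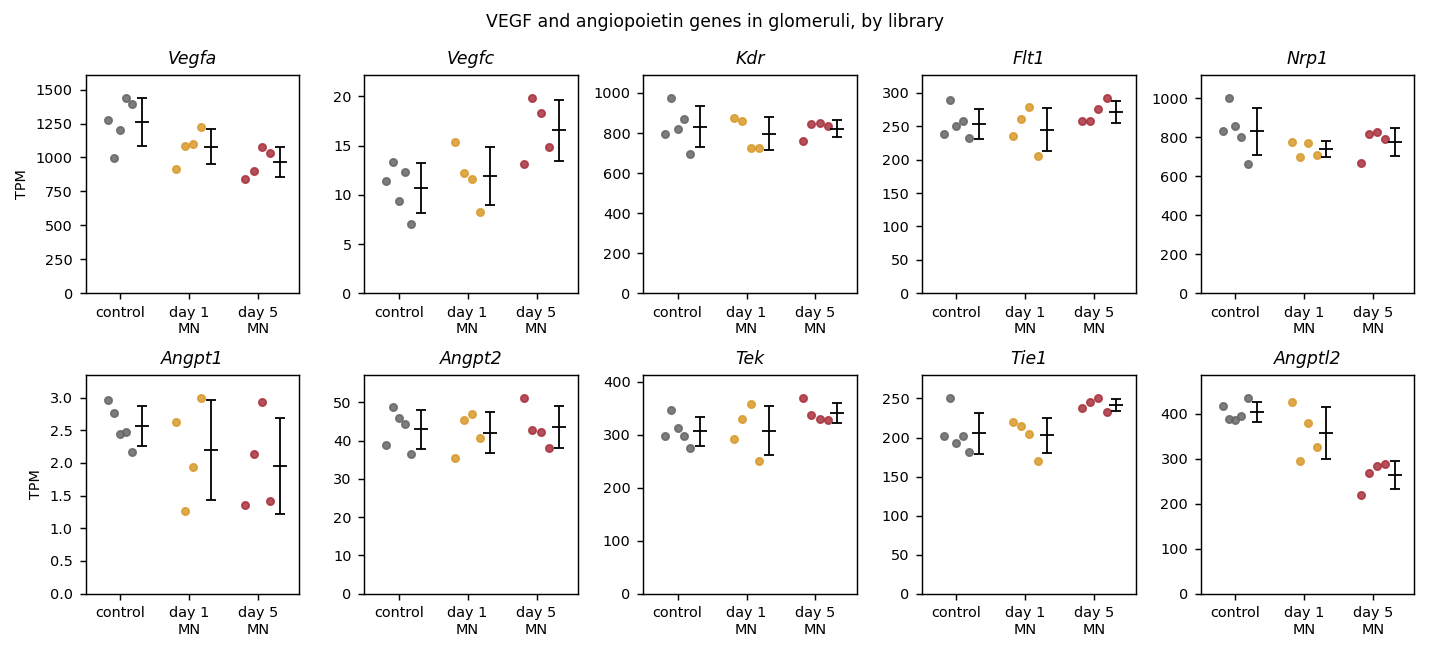
TPM of each member (y axis, from 0, with its own scale per gene) in the control (grey), day 1 MN (orange) and day 5 MN (red) libraries. Points are libraries and bars are the mean ± SD. The 4 day 5 MN libraries of Angptl2 (219 to 288 TPM) sit below all control libraries (385 to 435 TPM), and groups of the other members overlap with control.

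Against control, 0 of the 10 members were called at day 1 by limma, 0 had an unadjusted p under 0.05 and 0 had ranges apart from control. Over all tested genes these shares were 0.0908% called, 12.6% with an unadjusted p under 0.05 and 4.22% with ranges that did not overlap. The day 1 share of calls stands for 13 genes and depended on single libraries, with 218 genes called without control replicate 5, 3 without day 1 replicate 1 and 74 without control replicates 2 and 5, while 0 members were called in each of these fits. At day 5, 1 member was called (3.21% of all tested genes), 4 had an unadjusted p under 0.05 (20.1%) and 1 had a range apart from control (10.8%). Between day 5 and day 1, 0 members were called by limma (1.81% of all tested genes), 3 had an unadjusted p under 0.05 (15.5%) and 2 had ranges that did not overlap (11%). Both comparisons with control used the same 5 control libraries. The median log2 fold change of the members was -0.01 at day 1 and 0.04 at day 5, against -0.0029 and -0.0032 over all tested genes.

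Among the ligands, *Vegfa* was 1272, 999, 1201, 1438 and 1396 TPM in control, 913, 1082, 1101 and 1224 TPM in day 1 MN and 842, 903, 1078 and 1032 TPM in day 5 MN libraries. All 4 day 5 values were below the control mean, and 2 were below every control library. Control replicate 2, at 999 TPM, was the lowest control and lay inside the day 5 range. On the log2 scale *Vegfa* differed from control by -0.17 at day 1 (95% interval -0.42 to 0.07, limma adjusted p = 0.553) and -0.35 at day 5 (-0.59 to -0.10, adjusted p = 0.0959), so *Vegfa* did not pass at either day. Control replicate 2 also had the lowest summed podocyte markers (7881 TPM) and the highest summed endothelial markers (13366 TPM) of the control libraries. Without it the day 5 value of *Vegfa* was -0.44 (adjusted p = 0.016), still short of the fold change threshold, and with the mean endothelial marker level as a covariate it was -0.17 (adjusted p = 0.466).

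*Vegfc* encodes the ligand of VEGFR3, known best for lymphatic growth. It was 11.4, 13.4, 9.37, 12.3 and 7.06 TPM in control, 15.4, 12.3, 11.7 and 8.28 TPM in day 1 MN and 13.2, 19.8, 18.4 and 14.9 TPM in day 5 MN libraries. All 4 day 5 values lay above the control mean and 3 lay above every control library. At day 5 the log2 fold change was 0.65 (95% interval 0.24 to 1.07), larger in size than that of *Angptl2*, but the adjusted p was 0.0637 and the gene was not called. At day 1 it was 0.19 (-0.22 to 0.61, adjusted p = 0.716). *Vegfc* passed both thresholds at day 5 without control replicate 2 (0.73, adjusted p = 0.0496) and without day 1 replicate 4 (0.65, adjusted p = 0.0426). The day 1 library is in neither compared group and enters this contrast through the shared spread and the scaling factors. With the endothelial marker covariate it was 0.46 (adjusted p = 0.322). The lymphatic marker *Lyve1*, which macrophages also express, stood at 2.48 ± 1.06 TPM in control and 2.55 ± 0.649 TPM in day 5 MN mice.

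The VEGF receptors had day 1 and day 5 values close to those of control mice. *Kdr* was 797, 975, 822, 869 and 694 TPM in control, 876, 862, 726 and 723 TPM in day 1 MN and 762, 846, 848 and 833 TPM in day 5 MN libraries. All 8 MN values lay inside the control range. The difference from control was -0.01 on the log2 scale at day 1 (95% interval -0.20 to 0.17, limma adjusted p = 0.972) and 0.03 at day 5 (-0.16 to 0.21, adjusted p = 0.909). *Flt1* was 239, 289.7, 250.3, 257 and 232 TPM in control, 235, 261, 278 and 205 TPM in day 1 MN and 258, 258, 276 and 292 TPM in day 5 MN libraries. The 4 day 5 values of *Flt1* were above the control mean and 1 exceeded every control library. Its log2 fold change was -0.01 at day 1 (-0.18 to 0.16) and 0.13 at day 5 (-0.04 to 0.31, adjusted p = 0.397).

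*Nrp1* encodes neuropilin 1, a co-receptor that presents VEGF-A to VEGFR2 and also binds semaphorins. It was 831, 1000.2, 856, 801 and 660.2 TPM in control, 776, 697, 772 and 708 TPM in day 1 MN and 668, 816, 825 and 790.4 TPM in day 5 MN libraries. All 8 MN values were below the control mean and inside the control range, which ran from the lowest to the highest value of the experiment. Differences from control were -0.11 at day 1 (95% interval -0.30 to 0.08, limma adjusted p = 0.628) and -0.06 at day 5 (-0.24 to 0.13, adjusted p = 0.796).

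Of the TIE2 ligands, *Angpt1*, the activating ligand, was 2.96, 2.76, 2.45, 2.47 and 2.17 TPM in control, 2.62, 1.26, 1.93 and 2.99 TPM in day 1 MN and 1.36, 2.13, 2.93 and 1.42 TPM in day 5 MN libraries. The spread was wider in MN mice, with a coefficient of variation of 12.0% in control, 34.8% at day 1 and 37.6% at day 5. At day 5, 3 of 4 values lay below every control library and the other lay within the control range. The log2 fold change of *Angpt1* was -0.19 at day 1 (95% interval -0.67 to 0.30) and -0.33 at day 5 (-0.82 to 0.16, limma adjusted p = 0.466). Without day 1 replicate 2, the lowest library at 1.26 TPM, the day 1 value was -1.9e-05. The interval at day 5 was the widest of the 10 members.

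*Angpt2*, the context-dependent antagonist, was 39.0, 48.9, 46.0, 44.3 and 36.5 TPM in control, 35.4, 45.4, 47.1 and 40.7 TPM in day 1 MN and 51.1, 42.9, 42.3 and 38.0 TPM in day 5 MN libraries. The 3 groups overlapped, with 1 day 1 library below and 1 day 5 library above every control library. Its log2 fold change was 0.02 at day 1 (95% interval -0.22 to 0.26, limma adjusted p = 0.968) and 0.06 at day 5 (-0.18 to 0.30, adjusted p = 0.845).

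*Tek*, which encodes TIE2, was 297, 347, 313, 298 and 275 TPM in control, 293, 329.6, 358 and 249.9 TPM in day 1 MN and 369, 337, 329 and 327 TPM in day 5 MN libraries. The day 5 values lay above the control mean, with 1 above every control library. Its log2 fold change was 0.04 at day 1 (95% interval -0.16 to 0.25) and 0.19 at day 5 (-0.01 to 0.39, limma adjusted p = 0.284). *Tie1*, the partner receptor without a firmly established ligand, was 202, 250.1, 192, 202 and 182 TPM in control, 220.2, 215, 205 and 171 TPM in day 1 MN and 238, 245, 250.2 and 233 TPM in day 5 MN libraries. The day 5 libraries were tightly grouped, with a coefficient of variation of 3.26% against 12.7% in control, and 3 of them lay below the highest control library, replicate 2. The log2 fold change of *Tie1* was 0.03 at day 1 (-0.16 to 0.21) and 0.27 at day 5 (0.09 to 0.46, adjusted p = 0.0859). All 4 day 5 values of *Tie1* were above all 4 day 1 values, with a difference of 0.25 on the log2 scale (0.05 to 0.44) that did not pass (adjusted p = 0.20).

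Endothelial markers also had higher values at day 5. Of the 12 endothelial markers, 11 had higher values at day 5 than in control (median log2 fold change 0.21) and 0 were called by limma. *Pecam1* differed by 0.24 and *Cdh5*, the endothelial cadherin, by 0.21. *Emcn* (0.29, limma adjusted p = 0.0127) and *Sox17* (0.34, adjusted p = 0.0403) had an adjusted p under 0.05 but fell short of the fold change threshold. *Plat* was the marker with a lower value (-0.09). With log2 values taken relative to the mean of the 12 markers, the day 5 difference was 0.11 for *Tie1* and 0.02 for *Tek*. On that scale *Flt1* stood at -0.03 and *Kdr* at -0.14. Over the 13 libraries, the log2 level of *Tek* correlated with the mean endothelial marker level at Pearson r = 0.84 and that of *Tie1* at 0.81, and *Vegfa* correlated with it at -0.78. These coefficients describe libraries that share groups and scaling, and none was tested.

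**Figure D2:**
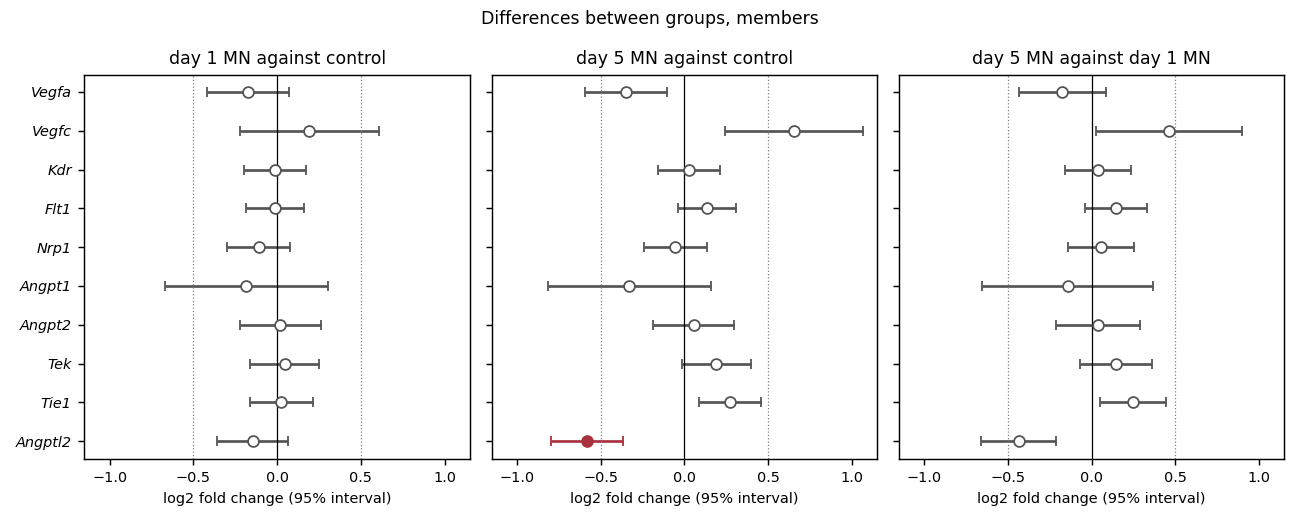
Log2 fold change (x axis) of each member in the 3 comparisons, with 95% intervals from the limma fit. Dotted lines mark an absolute log2 fold change of 0.5, and the filled red point is the called gene, Angptl2 at day 5 (-0.58). The intervals of Vegfa, Vegfc and Tie1 at day 5 exclude 0, but their adjusted p-values lay between 0.0637 and 0.0959.

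*Angptl2* encodes a secreted angiopoietin-like protein that does not bind TIE2 and is known for roles in inflammation and vessel growth. It was 418, 388, 385, 394 and 435 TPM in control, 427, 295, 379.9 and 326 TPM in day 1 MN and 219, 267, 283 and 288 TPM in day 5 MN libraries. Control values were close together (coefficient of variation 5.27%), day 1 values ranged from below to within the control range, and all 4 day 5 values lay below all 9 others. At day 5 the gene fell by 0.58 on the log2 scale (SE 0.10, 95% interval -0.79 to -0.37, limma adjusted p = 0.00287), a level 33.2% below control. At day 1 the difference was -0.15 (-0.36 to 0.07, adjusted p = 0.569), with 3 of 4 libraries below every control. Between day 5 and day 1 the difference was -0.44 (-0.66 to -0.21, adjusted p = 0.0452), below the fold change threshold, and the groups did not overlap.

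The day 5 call of *Angptl2* was kept in all 13 fits that left out 1 library each, with log2 fold changes from -0.62 to -0.51. It was lost in 1 of 17 other settings, with the mean endothelial marker level as a covariate (-0.45, adjusted p = 0.0307), where the fold change fell short of the threshold. With the mean podocyte marker level as a covariate the gene was called. Summed podocyte markers overlapped between control (7881 to 10617 TPM) and day 5 MN (9603 to 10219 TPM), as did summed endothelial markers (10564 to 13366 and 11106 to 14080 TPM). Of the 10 podocyte markers, 1 was called at day 5, *Cdkn1c*, a cyclin-dependent kinase inhibitor, which was higher (0.72). All 4 proliferation markers were called higher at day 5 (median 2.80), and their part in the *Angptl2* difference was not tested.

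Among tested genes that are not members, those whose log2 levels followed *Angptl2* most closely over the 13 libraries were *Zfp868* (Pearson r = 0.94), *Ino80* (0.93), the ATPase of a chromatin remodelling complex, and *Nectin4* (0.92), a cell adhesion molecule. *Nectin4* was called lower at day 5 against control (-1.26, limma adjusted p = 0.00120), whereas *Zfp868* (-0.32) and *Ino80* (-0.25) were not. These correlations include the group differences, and they are given as a description.

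**Figure D3:**
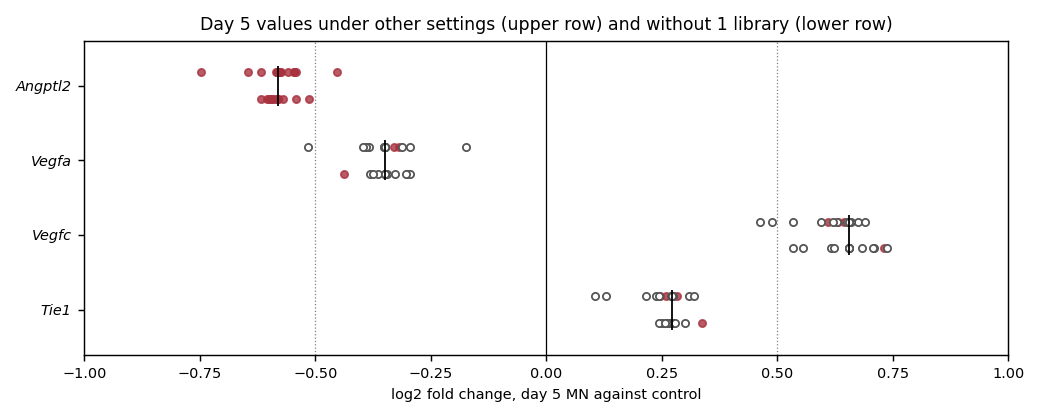
Log2 fold change of Angptl2, Vegfa, Vegfc and Tie1 at day 5 against control (x axis) under the other analysis settings (upper points of each gene) and with 1 library left out (lower points). Black ticks mark the reported values, filled red points have an adjusted p under 0.05 and dotted lines mark 0.5. Angptl2 stays between -0.75 and -0.45 with all points filled, and most points of the other genes are open.

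The balance between partners was examined as log2 ratios within a library, which use no scaling between libraries, with exact two-sided permutation tests adjusted over 9 tests. The plain ratio of *Angpt2* to *Angpt1* ran from 13.2 to 18.8 in control, from 13.5 to 36.1 in day 1 MN and from 14.5 to 37.7 in day 5 MN mice. The log2 ratio was 3.82 ± 0.188 (SD, n = 5) in control and 4.20 ± 0.486 (n = 4) at day 5, a difference of 0.38 within the spread of the MN mice (exact permutation p = 0.175, adjusted p = 0.524). At day 5 the coefficient of variation was 37.6% for *Angpt1* and 12.5% for *Angpt2*. Without day 5 replicate 3 the difference was 0.57 (exact permutation p = 0.0357, not adjusted). That p is the smallest that 5 against 3 libraries allow.

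The ratio of *Flt1* to *Kdr*, the genes of VEGFR1 and VEGFR2, pools the membrane and soluble forms of VEGFR1 and ran from 0.296 to 0.335 in control and from 0.305 to 0.351 at day 5. The difference of 0.11 on the log2 scale did not pass (exact permutation p = 0.0952, adjusted p = 0.429), and at day 1 it was 0.0011 (p = 1). The ratio of *Vegfa* to *Kdr*, ligand to receptor, ran from 1.02 to 2.01 in control, from 1.04 to 1.69 at day 1 and from 1.07 to 1.27 at day 5. Its log2 difference at day 5 was -0.38 (exact permutation p = 0.0952, adjusted p = 0.429). Both values depended on a control library, since without control replicate 2 the *Vegfa* to *Kdr* difference was -0.52 (exact permutation p = 0.0286), and without control replicate 5 the *Flt1* to *Kdr* difference was 0.14 (p = 0.0286). The smallest p was 0.0159 for 5 against 4 mice and 0.0286 for 4 against 4.

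**Figure D4:**
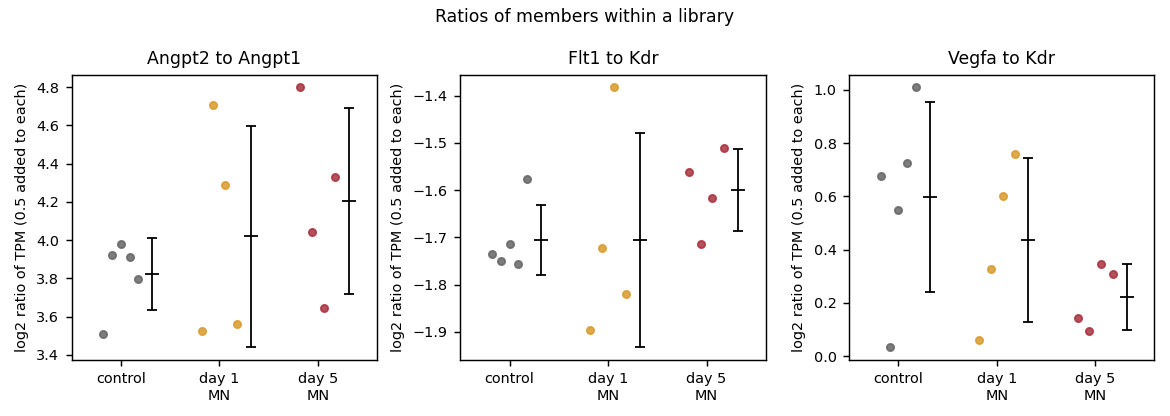
Log2 ratio of TPM (y axis, 0.5 added to each) of Angpt2 to Angpt1, Flt1 to Kdr and Vegfa to Kdr in each library, with the mean ± SD per group. The y axes do not start at 0. Day 5 MN libraries lie close together for Vegfa to Kdr (0.22 ± 0.123) and spread widely for Angpt2 to Angpt1 (4.20 ± 0.486).

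The rest of the pathway was described with 8 lists of 64 genes, of which 60 were tested. At day 1, 0 of the 60 were called higher and 1 lower (1.67%, against 0.0908% of all tested genes), and 9 had an unadjusted p under 0.05 (15.0%, against 12.6%). At day 5, 1 was called higher and 1 lower (3.33%, against 3.21%), and 16 had an unadjusted p under 0.05 (26.7%, against 20.1%). Between the days 0 were called by limma (1.81% of all tested genes), and 11 had an unadjusted p under 0.05 (18.3%, against 15.5%). The log2 fold changes of the 60 genes had a median of 0.0061 at day 1 and 0.08 at day 5, with a range of -0.77 to 0.88 at day 5.

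The 2 called genes both belong to the list of VEGF-responsive and feedback genes. *Vash1* encodes vasohibin 1, a VEGF-induced inhibitor of angiogenesis and tubulin carboxypeptidase. It was 45.4, 43.8, 42.1, 46.3 and 47.8 TPM in control, 27.2, 29.7, 34.5 and 28.8 TPM in day 1 MN and 26.3, 26.5, 30.4 and 29.98 TPM in day 5 MN libraries. No MN library reached the lowest control library, and the 2 MN groups overlapped. The log2 fold change was -0.54 at day 1 (limma adjusted p = 0.0111) and -0.63 at day 5 (adjusted p = 1.5e-04). The day 1 call was lost when the fit held the 2 compared groups alone (-0.54, adjusted p = 0.0819), with the tubular marker covariate (-0.57, adjusted p = 0.101) and relative to endothelial (-0.60, adjusted p = 0.16) or podocyte markers (-0.46, adjusted p = 0.161). It was also lost without day 1 replicate 1 (-0.49, adjusted p = 0.0491), where the fold change fell short of the threshold.

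*Aplnr*, the apelin receptor of endothelial cells, was 6.50, 5.37, 5.07, 6.31 and 3.41 TPM in control, 7.27, 4.94, 6.50 and 6.43 TPM in day 1 MN and 7.49, 11.4, 11.5 and 9.16 TPM in day 5 MN libraries. All day 5 values were above all others. The log2 fold change was 0.88 at day 5 (95% interval 0.50 to 1.25, limma adjusted p = 0.00783) and 0.28 at day 1 (-0.09 to 0.65, adjusted p = 0.529). The difference between the days, 0.60, did not pass (adjusted p = 0.12).

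Other ligands of the family did not pass. *Vegfd*, which like *Vegfc* activates VEGFR3, was 31.6 ± 5.57 TPM in control and 39.1 ± 7.09 TPM at day 5 (log2 fold change 0.33, limma adjusted p = 0.31), and *Vegfb*, a VEGFR1 ligand, differed by 0.09. The VEGFR3 gene *Flt4* stood at 40.0 ± 6.24 TPM in control and 41.6 ± 1.63 TPM at day 5 (0.10), and the co-receptor *Nrp2* differed by 0.08. *Ptprb*, which encodes the phosphatase VE-PTP that restrains TIE2, was 215 ± 16.2 TPM in control and 212 ± 17.7 TPM at day 5 (0.01). *Angpt4*, a further TIE2 ligand, was low at 2.91 ± 0.706 TPM in control (0.26 at day 5). Among angiopoietin-like genes, *Angptl4* differed by 0.05 at day 5. *Angptl7* had a log2 fold change of 0.66 at day 1 (adjusted p = 0.349) and -0.12 at day 5, and its control values spread from 40.7 to 100.2 TPM.

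Of 21 tested VEGFR2 signal transducers, 0 were called at either day. The most abundant were the chaperone gene *Hspb1* (-0.41 at day 1 and -0.14 at day 5) and the GTPase gene *Rac1* (0.02 and 0.18). At day 5, 3 transducers had an adjusted p under 0.05 with a log2 fold change short of 0.5, *Ptk2* (focal adhesion kinase, 0.28, limma adjusted p = 0.0266), *Mapk3* (ERK1, 0.25, adjusted p = 0.0325) and *Nos3* (endothelial nitric oxide synthase, 0.32, adjusted p = 0.0403). These 3 are named after their values were seen. Over all tested genes, 876 of 14322 had an adjusted p under 0.05 at day 5, at any fold change. Of 8 TIE2 effectors, 0 were called, and the most abundant, the flow-responsive factor *Klf2* and the phosphatase gene *Ptpn11*, differed by 0.09 and -0.19 at day 5. Of the other VEGF-responsive genes, *Plvap*, which encodes the diaphragm protein of endothelial fenestrae, differed by 0.34 (adjusted p = 0.317) and *Spred2*, an inhibitor of ERK signalling, by -0.003. Of 6 hypoxia regulators, 0 were called, and *Epas1*, which encodes HIF-2α, was 880.2 ± 98.1 TPM in control and 864 ± 8.42 TPM at day 5 (0.02), with its partner *Arnt* at 0.05.

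**Figure D5:**
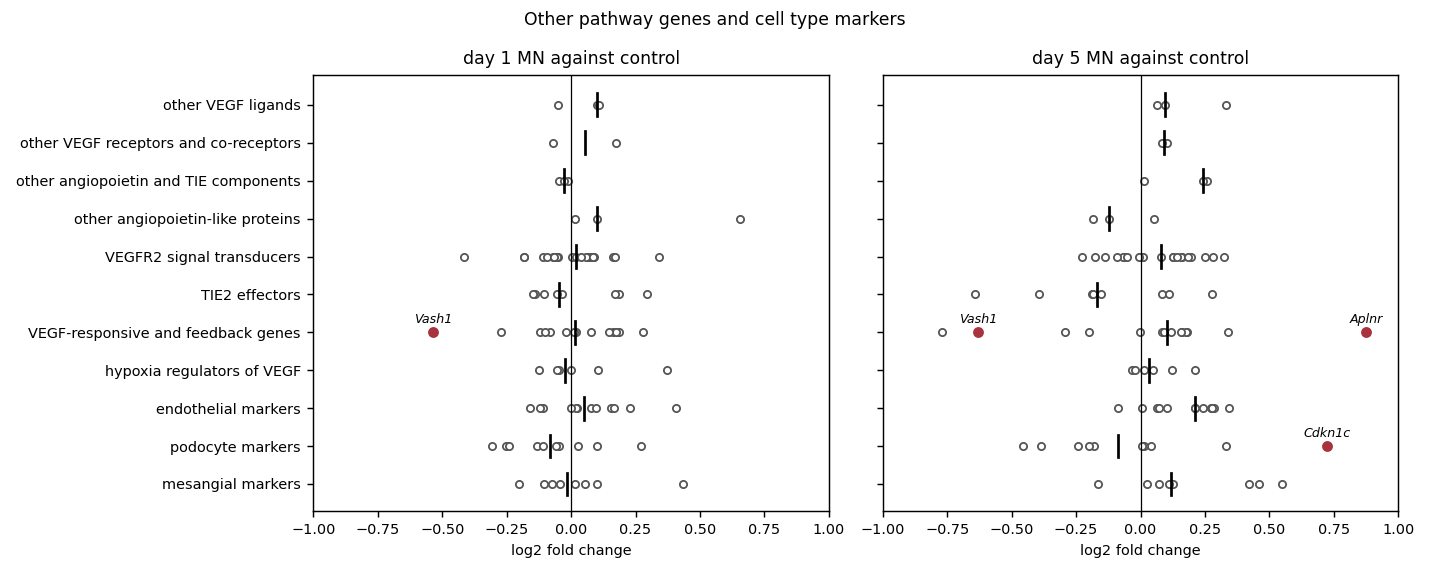
Log2 fold change (x axis) of tested genes in the 8 pathway lists and in the endothelial, podocyte and mesangial markers at day 1 and day 5 against control. Points are genes, black ticks are list medians, and filled red points are called. Vash1 (-0.54 and -0.63) and Aplnr (0.88 at day 5) are the called pathway genes, and the endothelial markers have a median of 0.21 at day 5.

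The members also differed between libraries of 1 group. Of the 5 control libraries, replicate 2 was the highest for 7 members (*Vegfc*, *Kdr*, *Flt1*, *Nrp1*, *Angpt2*, *Tek* and *Tie1*) and the lowest for *Vegfa*. Replicate 5 was the lowest for 8 members, all but *Vegfa* and *Angptl2*, and had the highest summed tubular markers of the control group (1021 TPM) and the lowest summed endothelial (10564 TPM) and mesangial markers (1785 TPM). With both left out, *Angptl2* was again the called member at day 5. Of the day 1 libraries, replicate 4 was the lowest for *Vegfc*, *Kdr*, *Flt1*, *Tek* and *Tie1* and the highest for *Vegfa* and *Angpt1*, with the lowest summed endothelial (9493 TPM) and the highest summed tubular markers (1364 TPM) of the experiment. The part of these library differences in the members' values was not tested.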

How the data were processed

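Bulk RNA-seq libraries of isolated glomeruli were analysed from the control (n = 5), day 1 MN (n = 4) and day 5 MN (n = 4) groups named in the sample labels. The authors deposited TPM values per gene symbol, made with FastQC 0.11.9, Trimmomatic 0.39 and kallisto 0.46.2 against GRCm39 according to the submitters' processing notes. The authors ran their own tests on counts, which this work did not use, and without counts no depth or counting interval could be stated. Summed TPM ranged from 989774 to 996064 per library.

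Median-of-ratios factors from the 15772 genes that no library listed at 0 lay between 0.955 and 1.04. TPM were divided by these factors and transformed to log2 after adding 0.5. Tests were restricted to the 14322 of 35967 genes that reached a TPM of 1 in 4 or more libraries. A single limma 3.58.1 model in R 4.3.3 held the 3 groups, with eBayes and a trend of the variance on the mean, and Benjamini-Hochberg adjustment covered all tested genes of a contrast. Calls required an adjusted p under 0.05 together with a log2 fold change beyond 0.5 in either direction. p-values measure the spread between these libraries, 1 per sample. The procedure was tested on simulated data with planted changes larger than any difference of the members. That test does not show how differences of the members' size are recovered. Ratios within a library were compared by exact two-sided permutation tests in Python 3.11.15 with scipy 1.17.1, and plots were drawn with matplotlib 3.10.9.

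The members, the pathway lists and the marker lists were chosen with earlier results of these data known. The text names all 10 members, the called genes of the pathway lists, the 2 genes of each list with the highest mean TPM, and the 3 tested genes with the highest correlation to a called member. Upstream sequences came from RefSeq (GRCm38.p6), where 8 of 10 members matched by symbol, and gene loci came from GENCODE on GRCm39. Alternatives covered pseudocounts, scaling, filters, the trend, which groups were fitted together, a block for the replicate number, array quality weights, marker covariates, the adjusted p alone and leaving out each library. Values relative to marker means, and the fit without control replicates 2 and 5, were chosen after seeing the data. Replicate numbers in the sample titles name different mice. Deviations of same-numbered libraries from their group means correlated at -0.056 to 0.091 over 12 pairs, so the numbers were not taken to pair the samples.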

Additional observations from a re-analysis of the deposited data

Results flagged for a closer look

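*Angptl2* differed between the days of the disease, with a log2 fold change of -0.44 in day 5 MN against day 1 MN mice (limma, adjusted p = 0.0452), lower in 4 of 4 day 5 libraries than in every day 1 library. The fold change was below the threshold of 0.5 used for calls. Without day 1 replicate 2, the lowest day 1 library at 295 TPM, it was -0.52 (adjusted p = 0.0216) and passed both thresholds. Over the 13 fits that left out 1 library each, the adjusted p ranged from 0.0216 to 0.127 and was under 0.05 in 3. Under 17 other settings the log2 fold change ranged from -0.54 to -0.33, with an adjusted p of 0.0372 to 0.468 that was under 0.05 in 5. Of 30 groups of 4 or 5 values examined, 0 members had a library set apart from the rest of its group by Dixon's criterion at the 95% level.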

How the results depend on the processing

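The precision of the members' values rests on 4 or 5 libraries a group, and with unknown depth the counting error of *Angpt1* and *Vegfc* could not be set apart from the spread between mice. At day 1, 0 members were called under every setting run. At day 5, *Angptl2* kept its call except with the endothelial marker covariate, where 0 members were called. With array quality weights, the tubular marker covariate or the podocyte marker covariate, 2 members were called, the second being *Vegfc* (0.65, 0.63 and 0.61, adjusted p = 0.0401, 0.0476 and 0.0336). Leaving out 1 library gave 1 to 2 called members at day 5 and 0 to 1 between the days, and the adjusted p alone gave 1 between the days. *Vegfa* at day 5 had an adjusted p under 0.05 with the tubular (-0.33) and podocyte covariates (-0.32), and *Tie1* with array weights (0.28) and the tubular (0.26) and podocyte covariates (0.25), all short of the fold change threshold. With the endothelial covariate, *Vegfa* was -0.17 (adjusted p = 0.466) and *Vegfc* 0.46 (adjusted p = 0.322). Over the 17 settings other than leaving out 1 library, the day 5 adjusted p ranged from 0.0385 to 0.466 for *Vegfa* and from 0.0336 to 0.322 for *Vegfc*. The causes were not tested.

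Some values changed sign, and not all of them were near 0 in the main fit. There *Vegfa* was -0.17, *Tek* 0.15 and *Flt1* 0.14 between the days, and *Nrp1* was -0.11 at day 1. Without scaling between libraries, the sign changed for *Angpt2* (-0.027), *Tek* (-0.0019) and *Tie1* (-0.020) at day 1 and *Kdr* at day 5 (-0.0080). With array quality weights it changed for *Angpt2* between the days (-0.0012) and *Kdr* at day 1 (0.0024). With quantile normalization it changed for *Kdr* at day 5 (-0.030) and between the days (-0.0043). With the endothelial covariate, *Angpt2* was -0.049 at day 1, -0.12 at day 5 and -0.069 between the days, *Kdr* was -0.092 at day 5 and -0.033 between the days, and *Tek* (-0.020) and *Tie1* (-0.030) reversed at day 1. Relative to endothelial markers, *Angpt2* was -0.046, -0.11 and -0.065 in the same order, *Kdr* was -0.14 at day 5 and -0.062 between the days, *Flt1* was -0.034 at day 5, *Nrp1* was -0.046 between the days, and *Tek* (-0.021) and *Tie1* (-0.039) reversed at day 1. With the podocyte covariate, *Angpt2* (-0.013), *Tek* (-0.00033) and *Tie1* (-0.031) reversed at day 1. Relative to podocyte markers, *Angpt2* was -0.0019 between the days, and *Flt1* (0.063) and *Kdr* (0.062) reversed at day 1. With the tubular covariate, *Flt1* (0.13), *Kdr* (0.10) and *Nrp1* (0.069) reversed at day 1, as did *Angpt2* (-0.17), *Flt1* (-0.0061), *Kdr* (-0.082), *Nrp1* (-0.14), *Tek* (-0.069) and *Vegfa* (0.090) between the days. Without control replicates 2 and 5, *Flt1* was 0.020 at day 1.

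With the replicate number as a replicate block, 1 member was called at day 5 and 0 at day 1, and *Angpt2* (-0.024) and *Tie1* (-0.0035) at day 1 and *Kdr* (-0.022) at day 5 changed sign. A library correlated best with its own number in 3 of 12 comparisons. Genes called at day 1 numbered 149 under the block and 13 without it. Control replicate 5 has no same-numbered partner and by construction bears on the blocked difference only through the scaling factors. Leaving it out alone gave 218.

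With 1 library left out, *Angpt2* ranged from -0.027 to 0.10 at day 1, -0.041 to 0.13 at day 5 and -0.060 to 0.11 between the days, and *Kdr* from -0.061 to 0.040, -0.023 to 0.078 and -0.013 to 0.088. The ranges at day 1 were -0.067 to 0.071 for *Flt1*, -0.023 to 0.14 for *Tek*, -0.018 to 0.11 for *Tie1*, -0.33 to -1.9e-05 for *Angpt1*, 0.060 to 0.35 for *Vegfc* and -0.24 to -0.067 for *Angptl2*. *Nrp1* at day 5 ranged from -0.12 to 0.0062. The *Angpt2* to *Angpt1* log2 ratio differed by -0.033 to 0.36 at day 1, 0.18 to 0.57 at day 5 and -0.016 to 0.41 between the days. *Flt1* to *Kdr* differed by -0.11 to 0.065 at day 1 and 0.076 to 0.14 at day 5, and *Vegfa* to *Kdr* by -0.52 to -0.27 at day 5.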
